A study of Mus musculus with 32 samples.

Results

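Sarcomere and contractile protein genes encode the myosins, actins, troponins, tropomyosins and Z-disc proteins that build the contractile apparatus. The 46 genes described here were chosen by gene symbol: the numbered members of the Myh, Myl, Tnnc, Tnni, Tnnt, Tpm, Actn, Myom, Myoz and Pdlim families, the Mybpc and Mybph genes, Actc1, Mb, Pvalb and Des. They were measured by 64 probes, of 9030 named genes and 20794 probes on the array. The tested samples were brain, kidney, muscle and pancreas of 4 male Nox4 knockout mice (Nox4 -/-, C57BL/6, 17 weeks), each hybridised on 2 arrays with the dyes exchanged. The control was 1 pool of RNA from wild-type C57BL/6 males, also aged 17 weeks. The labels state neither how the allele was made nor which muscle was taken. The design text gives 4 animals for the pool and the labelling protocol 6, so its size is not settled.

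In the sarcomere, myosin of the thick filament pulls on actin of the thin filament when calcium binds troponin C and the troponin complex moves tropomyosin aside. Slow and fast fibres of skeletal muscle carry different isoforms of nearly every one of these proteins, and slow fibres are also rich in myoglobin. Nonmuscle and smooth muscle members of the same families serve cell shape, division and the tone of vessels, so they are also present in brain, kidney and pancreas. The enzyme missing in the knockout, Nox4, is an NADPH oxidase whose product is hydrogen peroxide. The comparison asks whether its loss changed the transcripts of this apparatus, and in muscle whether slow and fast isoforms moved apart.

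Each value is a log2 ratio that likely runs knockout over pool, averaged over the 2 arrays of an animal and over the probes of a gene. Should the ratios run the other way, every higher becomes lower and the reverse. A ratio gives no level, so the labelled tissues could not be checked against their defining markers by level. Nox4 has 0 named probes, so its transcript cannot check the labels. Muscle arrays carried 20183 to 20650 values, and the arrays of all tissues 19815 to 20684. The number of arrays sets a limit to the precision of each value. Across probes, arrays of the same dye orientation correlated at r from 0.201 to 0.456 in muscle, whereas the r between both arrays of 1 animal ran from −0.351 to 0.00648. In the other tissues the 2 arrays of an animal reached at most r = 0.0634. Whether the ratios of the arrays with the knockout in Cy3 had all been turned to run the same way is therefore not settled, and values with those arrays turned are given where they change a result. Probes of near-identical family members may share signal on cDNA arrays, so single isoforms are uncertain to that extent.

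No sarcomere or contractile protein gene was called in any tissue. limma, with Benjamini-Hochberg adjustment over all genes of a tissue and a threshold of 0.05, called 0 of 46 in each of the 4 tissues, where all 46 had values in at least 3 animals and were tested. Over all genes the share called was 0% in muscle (of 16610), 0% in brain (of 16682), 0.00595% in kidney (of 16797) and 0% in pancreas (of 16297). At an unadjusted p under 0.05 the members numbered 2 in muscle, 2 in brain, 6 in kidney and 2 in pancreas. The same threshold held 7.83% of all genes in muscle, 4.5% in brain, 9.48% in kidney and 3.42% in pancreas. These p-values measure the spread between knockout animals only, because the pool is 1 control sample. The plot of all 46 genes by tissue shows most means close to 0. The 95% interval lay within 0.5 of 0 on the log2 scale, a 1.41-fold change, for 42 genes in muscle, 45 in brain, 42 in kidney and 34 in pancreas. It lay within 1, a 2-fold change, for 45, 46, 46 and 44 genes in the same order of tissues.

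**Figure D1:**
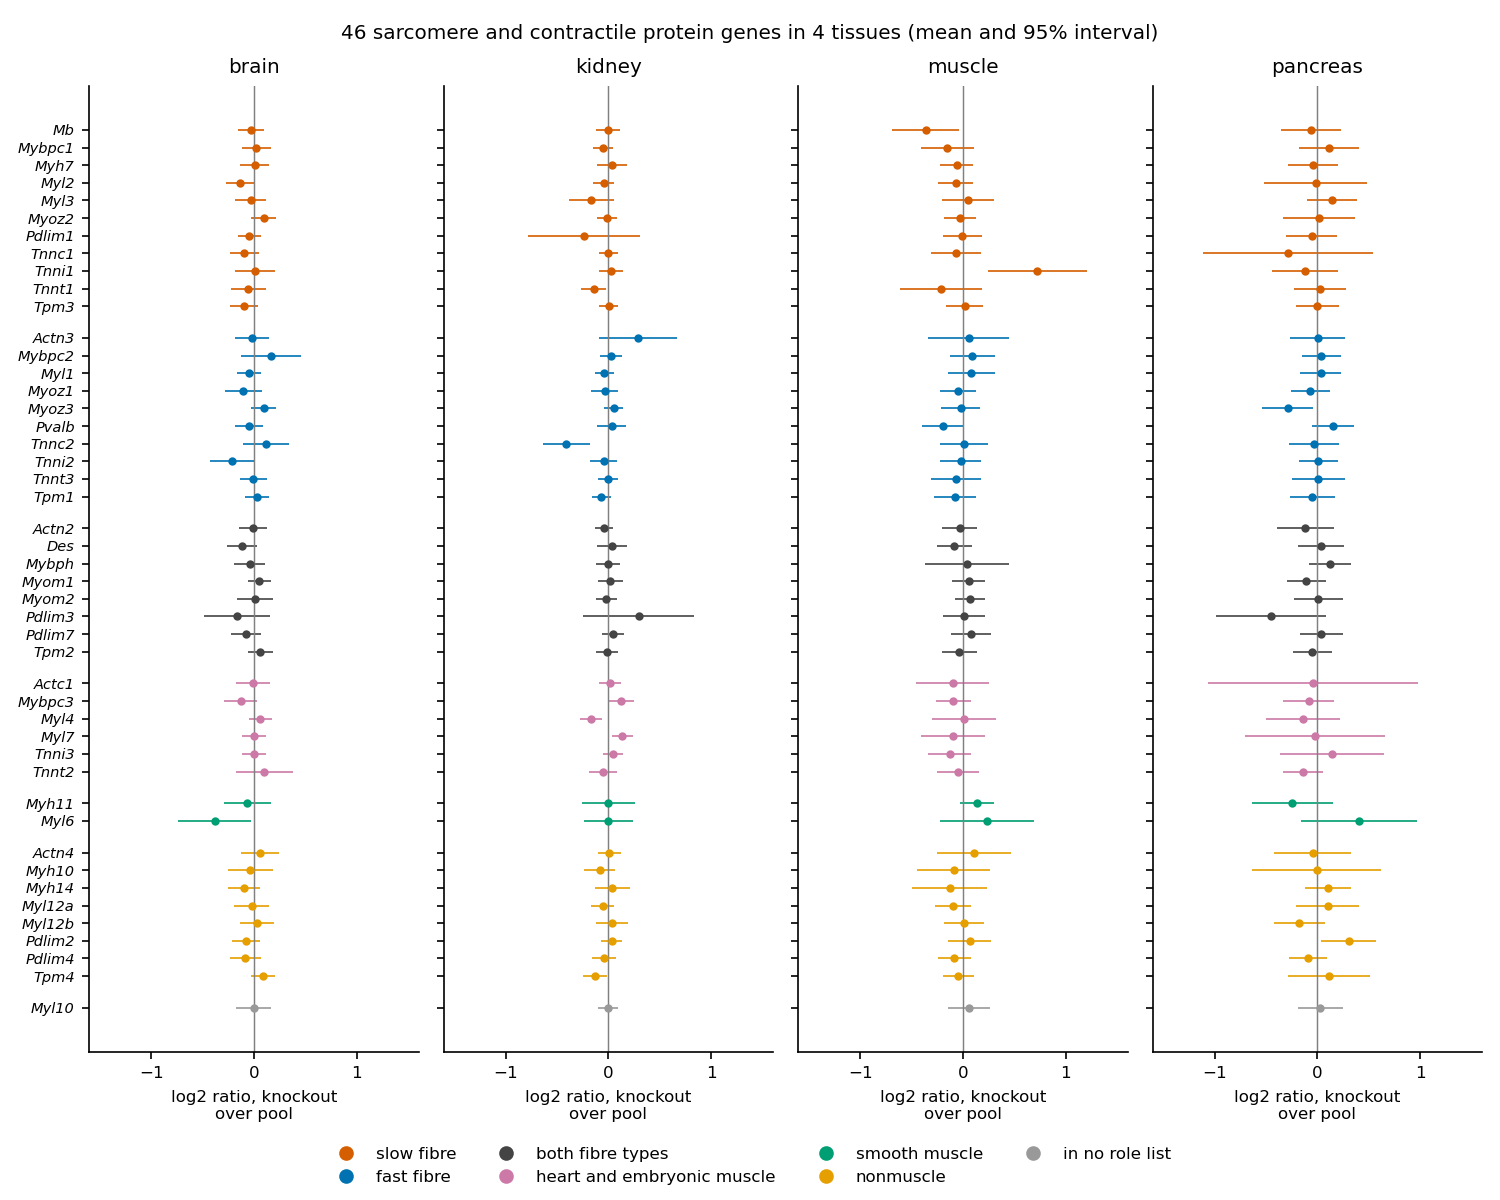
Mean log2 ratio of knockout over pool (horizontal axis) for the 46 genes in 4 tissues, with the 95% interval from limma over 4 animals and colours for the role of the gene. Most means lie near 0. Tnni1 in muscle has the highest mean of all, 0.72, and the intervals are widest in pancreas.

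In muscle, 11 genes listed for slow fibres, 10 for fast fibres and 8 for both fibre types were measured. The fast myosin heavy chain genes Myh1, Myh2 and Myh4 and skeletal actin Acta1 had no probe here. The median log2 ratio was −0.06 for the slow fibre genes and −0.02 for the fast fibre genes, beside −0.02 for all genes tested. The slow minus fast difference of medians was 0.07, 0.05, −0.18 and −0.03 in the 4 animals. Animals therefore lay on both sides of 0, with an SD of 0.12. Over all animals the difference was −0.04, and it was 0.02 without animal 3. Of the slow fibre genes 3 lay above 0 and 8 below, and of the fast fibre genes 4 lay above and 6 below. Of all genes tested in muscle 41.5% lay above 0. In 46 members, 3 lay above 0 in all 4 muscle samples and 3 below, beside 6.87% and 12% of all genes with 4 animals. In whole muscle, fewer fibres of a type and less RNA per fibre cannot be told apart.

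**Figure D2:**
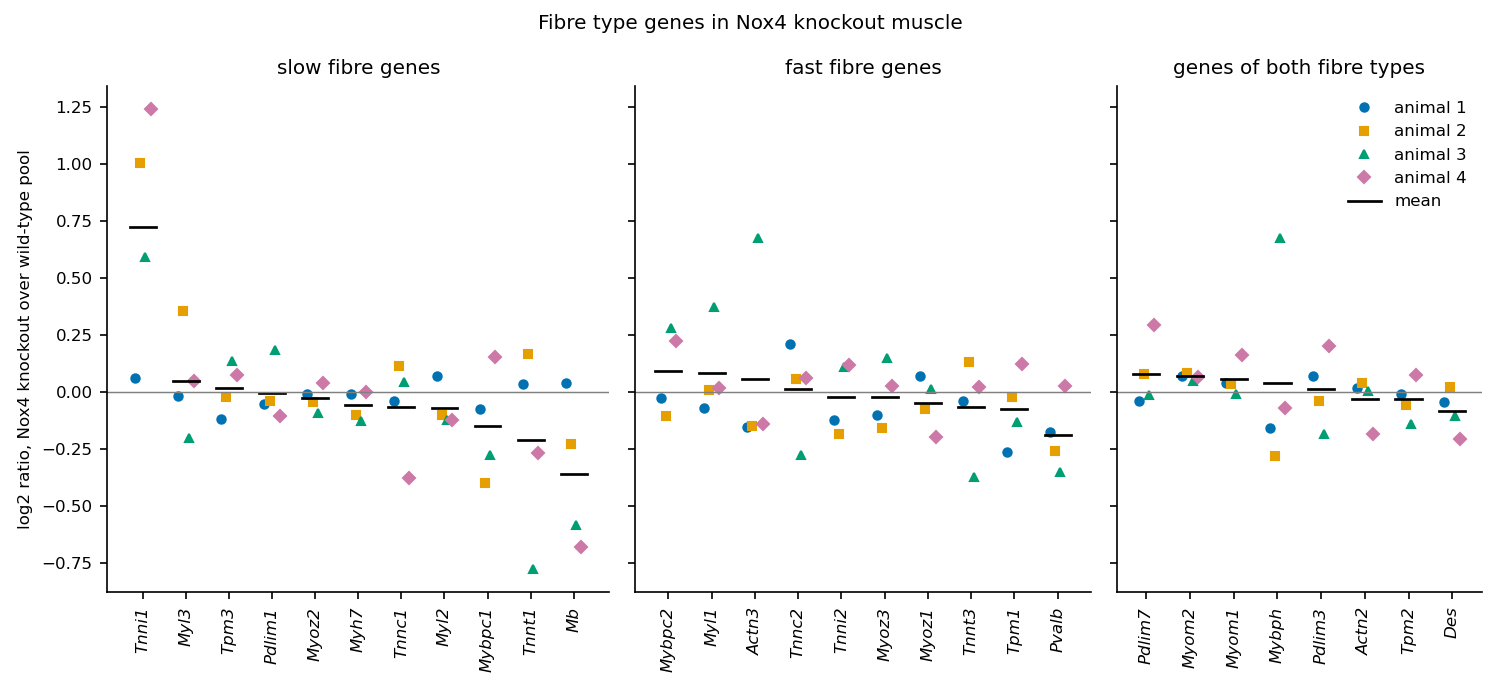
Log2 ratio of knockout over pool in muscle (vertical axis) for each gene listed for slow fibres, fast fibres and both, with 1 symbol per animal and a bar at the mean. Tnni1 stands highest and Mb lowest among the slow fibre genes, and animal 3 is the highest for Actn3 and Mybph and the lowest for Tnnt1.

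Tnni1 encodes slow skeletal troponin I, the subunit that inhibits contraction in the absence of calcium. It had a log2 ratio of 0.06, 1.002, 0.59 and 1.24 in muscle of knockout animals 1 to 4. Animal 1 lay at the pool and the other animals lay clearly above it. The mean was 0.72 ± 0.19 (SE, n = 4; 95% interval 0.24 to 1.20), with an adjusted p of 0.468. in limma Both dye orientations gave similar means, 0.76 with the knockout in Cy5 and 0.69 with it in Cy3, and 7 of 8 arrays lay above 0. Tnni1 was called when limma fitted the 4 tissues together with a common spread, with an adjusted p of 0.0169. That fit called 280 genes in muscle, against 0 of 16610 in the fit of muscle alone. With the Cy3 arrays turned its mean was 0.03. The array has 1 Tnni1 probe, so no other probe could be set beside it. Its fast counterpart Tnni2 had values of −0.12, −0.18, 0.11 and 0.12, a mean of −0.02. Tnni1 minus Tnni2 came to 0.18, 1.19, 0.48 and 1.13 in the 4 animals, above 0 in each.

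Mb encodes myoglobin, the oxygen store of slow and oxidative fibres. Its log2 ratios in muscle were 0.04, −0.23, −0.58 and −0.68. Animal 1 again lay near the pool, and animals 3 and 4 lay farthest below it. The mean was −0.36 ± 0.13 (SE, n = 4; 95% interval −0.69 to −0.04), with an adjusted p of 0.615. in limma Arrays with the knockout in Cy5 averaged −0.22 and those with it in Cy3 averaged −0.51; 6 of 8 arrays lay below 0. With the Cy3 arrays turned the mean was 0.14. The 2 slow fibre genes with the smallest p in muscle thus lay on opposite sides of the pool.

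The promoters of a pair of slow fibre genes are shown because Tnni1 and Mb are the members with the smallest p in muscle and lie on opposite sides of the pool. Both are RefSeq sequences on GRCm38.p6, from 250 bases before to 50 after the start that lies farthest downstream. Tnni1 is at chr1:135799261-135799560 on the plus strand, and Mb at chr15:77022678-77022977 on the minus strand. Capitals mark the E-box CANNTG, the motif bound by myogenic basic helix-loop-helix factors, which reads the same on both strands.
Tnni1: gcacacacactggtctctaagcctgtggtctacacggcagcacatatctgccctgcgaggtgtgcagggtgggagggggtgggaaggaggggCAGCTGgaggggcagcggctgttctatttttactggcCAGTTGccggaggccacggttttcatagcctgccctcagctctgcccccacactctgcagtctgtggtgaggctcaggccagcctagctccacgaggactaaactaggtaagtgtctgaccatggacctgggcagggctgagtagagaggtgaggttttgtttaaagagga
Mb: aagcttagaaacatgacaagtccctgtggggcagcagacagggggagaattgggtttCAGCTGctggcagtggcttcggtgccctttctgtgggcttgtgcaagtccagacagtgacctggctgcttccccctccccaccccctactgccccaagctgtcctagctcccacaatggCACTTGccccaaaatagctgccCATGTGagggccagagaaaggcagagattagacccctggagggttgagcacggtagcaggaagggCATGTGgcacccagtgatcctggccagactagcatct
The Tnni1 window holds 2 E-boxes and the Mb window 4, and neither holds a full match to the MEF2 consensus. Near matches were not counted. RefSeq gives 2 starts for Tnni1 and 3 for Mb. The windows not shown hold 4 E-boxes for Tnni1, and 2 and 3 for Mb. Which gene has more E-boxes therefore depends on the start chosen. RefSeq promoters matched 38 of the 46 members, with 49 starts. An E-box stood in 83.7% of these, in 94.1% of 17 slow fibre promoters and in 83.3% of 6 fast fibre promoters, beside 72.3% of all 32851 promoters of that length. The MEF2 motif stood in 6.12% of member promoters and in 3.19% of all. These matches describe the letters of the windows only.

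The other 9 slow fibre genes had means between −0.21 and 0.05. Myh7, the slow myosin heavy chain, had ratios of −0.01, −0.10, −0.13 and 0.00 (mean −0.06, SD 0.06). Myl2 and Myl3, the regulatory and essential light chains of slow myosin, averaged −0.07 and 0.05. Tnnc1, the calcium sensor of slow fibres, averaged −0.07, with −0.38 in animal 4. Tnnt1, which anchors the slow troponin complex to tropomyosin, had 0.03, 0.16, −0.78 and −0.27, a mean of −0.21 with an SD of 0.42. Animal 3 was lowest for Tnnt1 on both of its arrays (−0.93 and −0.63). Mybpc1, the slow myosin-binding protein C, averaged −0.15 over 3 probes whose means were −0.60, 0.00 and 0.15, the widest disagreement between probes of a member in muscle. Tpm3, Myoz2 and Pdlim1, a slow tropomyosin and a pair of Z-disc proteins, averaged 0.02, −0.03 and −0.01.

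The 10 fast fibre genes had means between −0.19 and 0.09. Pvalb, the calcium buffer parvalbumin of fast fibres, had −0.18, −0.26, −0.35 and 0.03, a mean of −0.19 (95% interval −0.39 to 0.01; adjusted p = 0.623, limma). It was below 0 in 3 of 4 animals. Actn3, the alpha-actinin of fast Z-discs, had −0.16, −0.15, 0.67 and −0.14. Animal 3 alone lay above the pool, through 1 array at 1.35 beside its other at 0.00. Mybpc2, the fast myosin-binding protein C, had −0.03, −0.11, 0.28 and 0.22. Myl1, a fast essential light chain, averaged 0.08 and Tnnc2, fast troponin C, 0.01. Tnnt3, fast troponin T, averaged −0.07, Tpm1 −0.07, Myoz1 −0.05 and Myoz3 −0.02.

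Of 6 slow and fast counterparts, 2 had a difference on the same side of 0 in all 4 muscle samples, against 4 in kidney and 0 in brain and in pancreas. One was the troponin I pair above. The other was the myosin-binding protein C pair, with Mybpc1 minus Mybpc2 at −0.05, −0.29, −0.56 and −0.07. The low Mybpc1 value rested on 1 of its 3 probes, with a mean of −0.60 and arrays at 1.48 and −4.13 in animal 3. The other probes averaged 0.00 and 0.15. Dye means (knockout in Cy5, then Cy3) were 0.32 and −0.62 for Mybpc1 and 0.52 and −0.33 for Mybpc2. The troponin T, troponin C, calsarcin (Myoz2 minus Myoz1) and tropomyosin (Tpm3 minus Tpm1) pairs averaged −0.15, −0.08, 0.02 and 0.09. Their animals lay on both sides of 0. In kidney Mybpc1 minus Mybpc2 was also below 0 in every animal, at −0.07, −0.10, −0.07 and −0.07. No test was run on these differences.

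The 8 genes listed under both fibre types had means between −0.09 and 0.08, and SDs between animals of 0.01 for Myom2 to 0.43 for Mybph. The fibre type of each listed gene was not tested in these data. Myom2, an M-band protein, had 0.07, 0.08, 0.05 and 0.07, above 0 in every animal with the smallest spread of these genes (SD 0.01). That narrow spread over animals hid a gap between dyes, with a mean of 0.26 with the knockout in Cy5 and −0.12 with it in Cy3. Myom1, of the same band, averaged 0.06, and with the Cy3 arrays turned it averaged −0.33 and was called (adjusted p = 0.0407, limma). Des, the intermediate filament desmin, averaged −0.09 and Actn2, the alpha-actinin of all Z-discs, −0.03. Tpm2, Pdlim3 and Pdlim7 averaged −0.03, 0.01 and 0.08. Mybph, a thick-filament protein related to the myosin-binding proteins C, was at −0.16, −0.28, 0.68 and −0.07, and animal 3 was high on both arrays (0.65 and 0.71).

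Of the 6 heart and embryonic isoforms, 4 (Actc1, Myl4, Myl7 and Tnnt2) lay above the pool in animals 1 and 2 and below it in animals 3 and 4. Mybpc3 and Tnni3 did not, with −0.11, 0.04, −0.14 and −0.17 for Mybpc3 and 0.04, −0.01, −0.32 and −0.22 for Tnni3. Outside the list Myh14, a nonmuscle myosin heavy chain, had the same order of signs at 0.31, 0.05, −0.32 and −0.55. So did the slow fibre gene Tnnt1, at 0.03, 0.16, −0.78 and −0.27. The share of all genes with this order of signs was not counted. Actc1, cardiac actin, had arrays of 0.22 and 0.22 in animal 1 and of 0.21 and 0.22 in animal 2. In animal 3 its arrays were at −0.30 and −0.42, and in animal 4 at −0.32 and −0.62. Both arrays of each animal thus lay on one side. Myl4, the embryonic and atrial essential light chain, had animal values of 0.18, 0.36, −0.20 and −0.30, and each animal's 2 arrays again fell on one side. The medians over the 6 genes of this list (Myl4, Myl7, Tnni3, Tnnt2, Mybpc3, Actc1) were 0.11, 0.11, −0.17 and −0.27. All genes tested had medians of −0.01, −0.04, −0.03 and −0.03 in the same animals. The means over animals were −0.10 for Actc1 and 0.01 for Myl4, with adjusted limma p-values of 0.849 and 0.984. Myl7, the atrial regulatory light chain, differed more by dye than by animal, averaging −0.69 with the knockout in Cy5 and 0.50 with it in Cy3. The difference between these animals was not tested, since the samples carry no label that separates animals 1 and 2 from 3 and 4.

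**Figure D3:**
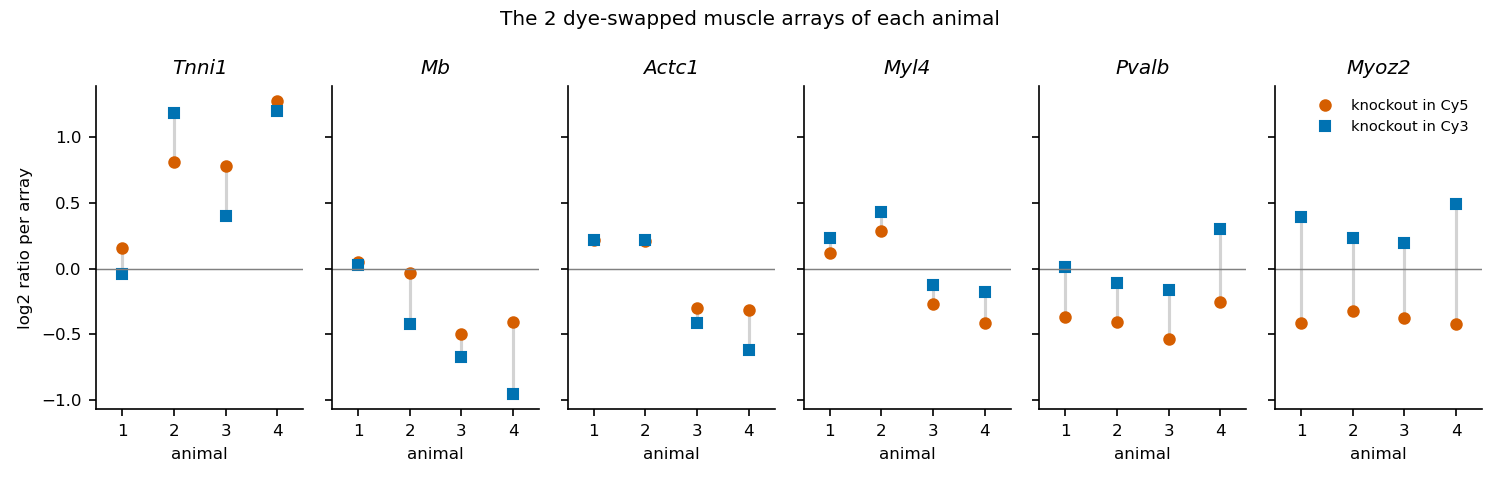
Log2 ratio of the 2 muscle arrays of each animal (vertical axis) for 6 genes, with circles for the knockout in Cy5 and squares for the knockout in Cy3, joined within an animal. Both arrays of an animal lie close together for Actc1 and Myl4, whereas those of Myoz2 lie on opposite sides of 0 in every animal.

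The 2 dye orientations gave different values for many genes. The 2 arrays of an animal lay on the same side of 0 in 39.7% of 184 member values in muscle, beside 41.3% for all genes. The median gap between the dye orientations was 0.28 for members and 0.28 for all genes in muscle. It was 0.37 for members and 0.49 for all genes in pancreas. Brain members had a gap of 0.17 beside 0.19 for all genes, and kidney members 0.14 beside 0.18. Myoz2 shows it: all 4 Cy5 arrays were below 0 and all 4 Cy3 arrays above, with means of −0.38 and 0.33, so that the animals averaged −0.03. With the Cy3 arrays turned, 6 members were called in muscle, all lower (Myl10, Myl12b, Myl7, Myom1, Myoz2 and Tpm2), while the count over all genes was 879. Tnni1 and Mb were not among them.

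No smooth muscle or nonmuscle member was called in muscle. The medians were 0.19 over the 2 smooth muscle genes, the farthest from 0 of the role lists with more than 1 gene, and −0.06 over the 8 nonmuscle genes. Myh11, smooth muscle myosin heavy chain, had 0.15, 0.13, 0.02 and 0.24, above 0 in every animal, with a mean of 0.14 (adjusted p = 0.646, limma). Myl6, an essential light chain of smooth muscle and nonmuscle myosin, averaged 0.24, set by 0.95 in animal 3, where 1 probe reached 3.02 on 1 array. That probe averaged 0.58 over animals and the other Myl6 probe −0.11. Myl12a, a nonmuscle regulatory light chain, and the PDZ-LIM protein Pdlim4 lay below 0 in every animal with means of −0.10 and −0.08. Tpm4, a nonmuscle tropomyosin, was also below 0 in each, at −0.07, −0.04, −0.06 and −0.01. Its dye means were 0.40 and −0.49, far wider than the spread between animals. Actn4, a nonmuscle alpha-actinin, had 0.66 in animal 3, while the other animals lay from −0.10 to −0.03.

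Other genes of the muscle programme, from lists of genes outside the 46 members, gave no call in muscle either, in 5 lists. Among 16 fibre type regulators, Esrrg, an orphan nuclear receptor that favours oxidative metabolism, had 0.37, 1.40, 1.09 and 1.15, a mean of 1.002 (adjusted p = 0.395, limma). Mef2c, a transcription factor of muscle genes, had 0.09, 0.43, 0.28 and 0.50, a mean of 0.32 (adjusted p = 0.471, limma). As for Tnni1, animal 1 had the lowest value of both. Myog, which drives myoblast differentiation, averaged −0.18 with animals on both sides of 0. In the same list 7 of 16 genes lay above 0, beside 41.5% of all genes tested in muscle.

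Among 16 genes of calcium handling, Pln, the inhibitor of the calcium pump in slow fibres and heart, had 2.09 and 1.39 in animals 1 and 2 and −0.22 in animal 4, with no value for animal 3. Cacnb1, a subunit of the calcium channel, averaged 0.27 in the 3 animals measured, and Stac3, an adaptor of excitation-contraction coupling, −0.20. Of 16 genes listed under titin, nebulin and the Z-disc, Cryab, a small heat shock protein, averaged 0.29, with 0.77 in animal 3. That list also holds Mylpf, a myosin light chain gene whose symbol has no number. Mylpf averaged −0.12 in muscle and is counted again among the skeletal muscle markers. Csrp2 and Smtnl1 lay below 0 in every animal, at means of −0.13 and −0.11. Of 10 genes of sarcomere assembly and turnover, 8 lay below 0, beside 9715 of 16610 for all genes. Among these 8 were Hspb1 at −0.16 and the ubiquitin ligase Trim54 at −0.17. In the smooth muscle list Cnn2, a calponin, had 0.41, 0.93, 0.23 and 0.48, a mean of 0.51 (adjusted p = 0.431, limma).

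Markers of other cells were measured in the same muscle samples, and none was called. Of 9 macrophage markers 7 lay below 0, beside 9715 of 16610 for all genes, with medians of −0.04, −0.18, −0.11 and −0.20 in the 4 animals; Ctss averaged −0.53 and Ptprc −0.43. Animal 1 was closest to 0 for this list, as for Tnni1 and Mb. The 8 endothelial markers had a median of −0.03, with 5 of 8 below 0. Tek averaged 0.60, Cdh5 0.42 and Pecam1 −0.17. The 8 fibroblast markers had a median of −0.01, with Postn at −0.49. Skeletal muscle markers outside the 46 members had medians of 0.07, −0.10, −0.03 and −0.08 over 11 genes. The part of these cells in the muscle values was not tested.

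In kidney, 8 of 46 members lay below 0 in all 4 animals and 3 above, beside 9.85% and 10.1% of all genes with 4 animals. Tnnc2, fast troponin C, had −0.74, −0.11, −0.38 and −0.41, a mean of −0.41 ± 0.09 (SE, n = 4; adjusted p = 0.458, limma). Every animal was below the pool, though only 6 of 8 arrays were. Myl4 had −0.13, −0.20, −0.09 and −0.26, and all 8 arrays lay below 0. Its mean was −0.17, with an adjusted limma p of 0.471. Tnnt1 and Tpm4 averaged −0.15 and −0.13, and Tpm1 −0.07, below 0 in every animal. Above 0 in every animal were Myl7 (0.14), Mybpc3 (0.12), the cardiac myosin-binding protein C, and Tnni3 (0.04), cardiac troponin I. Dye means (knockout in Cy5, then Cy3) were 0.05 and −0.31 for Tpm4 and 0.003 and −0.14 for Tpm1. Those of Myl7 were 0.03 and 0.24, with 3 of 8 arrays below 0. Those of Tnnt1 were −0.095 and −0.20, those of Mybpc3 0.09 and 0.16, and those of Tnni3 0.08 and 0.006. Skeletal muscle markers outside the 46 members had a median of −0.01 in kidney, with 8 of 11 below 0, beside 8139 of 16797 for all genes. The part of these markers in the Tnnc2 value was not tested.

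In brain, 6 members lay below 0 in all 4 animals and 4 above, beside 6.71% and 8.91% of all genes. Myl6 had −0.17, −0.22, −0.18 and −0.96, a mean of −0.38 (adjusted p = 0.775, limma). Animal 4 set much of that mean, with 1 probe at −2.90 on 1 array. Its 2 probes averaged −0.72 and −0.18. Tnni2 had −0.16, −0.13, −0.05 and −0.52 (mean −0.21; adjusted p = 0.775, limma). Des, Pdlim2 and Pdlim4 averaged −0.12, −0.08 and −0.08. Above 0 in every animal were Myoz2 (0.10), Tpm4 (0.09), Myl4 (0.06) and Myom1 (0.05). Dye means (knockout in Cy5, then Cy3) were −0.13 and 0.32 for Myoz2 and −0.12 and 0.23 for Myom1. Those of Tpm4 were 0.18 and −0.004, and those of Myl4 0.04 and 0.09.

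In pancreas the spread was wider, and 5 members lay below 0 in all animals and 3 above, beside 5.13% and 5.42% of all genes with 4 animals. Myoz3, a calsarcin of fast fibres, had −0.51, −0.06, −0.26 and −0.32, a mean of −0.29 (adjusted p = 0.995, limma). Pdlim2 had 0.07, 0.31, 0.24 and 0.59, a mean of 0.30 (adjusted p = 0.995, limma). A Pdlim2 value beyond 8 in size was taken as missing, on the unchecked assumption that a channel was at its floor. Animals 1 and 2 each rest on 1 of the 2 Pdlim2 probes. That value can account for only 1 of these animals. The probes averaged 0.01 and 0.998. Pvalb (0.15) and Myl3 (0.14) were also above 0 in every animal. Tnnt2, Myom1, Pdlim4 and Myoz1 were below 0 in each, at −0.14, −0.11, −0.09 and −0.07. Dye means (knockout in Cy5, then Cy3) were −0.68 and 0.45 for Myom1 and −0.57 and 0.43 for Myoz1. Those of Tnnt2 were −0.28 and 0.001, and those of Pdlim4 0.08 and −0.27. With the Cy3 arrays turned, Myom1 averaged −0.56 and Myoz1 −0.50, and both were called (adjusted p = 0.0267 for each, limma). Actc1 had 0.97, −0.04 and −1.06 in the 3 animals with both arrays, and its dye means were 0.92 and −1.04.

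**Figure D4:**
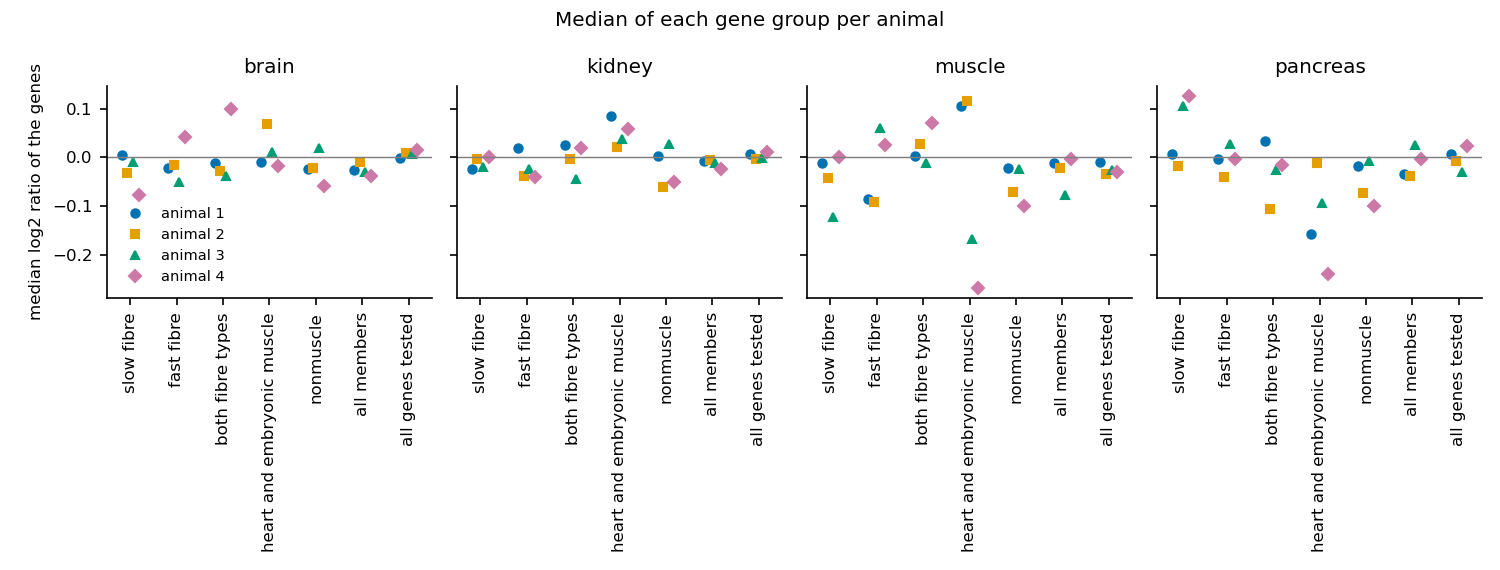
Median log2 ratio over the genes of each role (vertical axis) in each animal and tissue, with the medians of all 46 genes and of all genes tested at the right; the pair of smooth muscle genes is left out. In muscle the heart and embryonic genes lie at 0.11 in animals 1 and 2 and at −0.17 and −0.27 in animals 3 and 4, and the other groups lie closer to 0.

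Slow minus fast, the difference of the medians over animal means was −0.02 in both brain and pancreas and 0.01 in kidney. Taken within each animal, pancreas gave 0.01, 0.02, 0.08 and 0.13, all above 0 and thus opposite in sign to the difference over animal means. Brain (−0.12 to 0.04) and kidney (−0.04 to 0.04) had animals on both sides of 0. Over all members the median ran from −0.03 in muscle to 0.00 in kidney. The medians of all genes tested ran from −0.02 in muscle to 0.01 in brain. The plot of group medians per animal gives these beside the other roles.

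Between tissues the knockout ratios were compared in 1 limma fit over the 4 tissues, for 6 pairs. No member was called in any pair. The share of 16185 genes called was 0.711% for muscle minus brain, 0.0185% for muscle minus kidney and 0.933% for muscle minus pancreas, and 0% for kidney minus brain, pancreas minus brain and pancreas minus kidney. At an unadjusted p under 0.05 the members numbered 3, 5, 5, 2, 4 and 5 in that order of pairs. All genes at that threshold made up 9.6%, 6.4%, 13.2%, 2.94%, 8.33% and 5.74%.

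Tnni1 had the smallest p of all members in each pair with muscle. Its ratio was 0.72 in muscle. Brain and kidney had 0.01 and 0.02, and pancreas −0.12. The difference was 0.72 for muscle minus brain (95% interval 0.28 to 1.15; adjusted p = 0.166, limma). It was 0.70 for muscle minus kidney (0.27 to 1.13; adjusted p = 0.265, limma) and 0.84 for muscle minus pancreas (0.41 to 1.28; adjusted p = 0.0675, limma). Animal 1 had the lowest Tnni1 ratio in muscle (0.06). Without this animal, Tnni1 was called for muscle minus brain (adjusted p = 0.0204, limma) and muscle minus pancreas (adjusted p = 0.0308, limma). Those fits called 245 and 140 genes. With animal 2, 3 or 4 left out instead, 0 members were called for either pair. Mb had −0.36 in muscle against −0.03 in brain, a difference of −0.33 (adjusted p = 0.49, limma), and its difference from kidney was −0.36 (adjusted p = 0.662, limma). Pvalb was at −0.19 in muscle against 0.15 in pancreas, a difference of −0.34 (adjusted p = 0.122, limma). Myoz3 differed by 0.27 for muscle minus pancreas, from −0.02 and −0.29. Tnnc2 had 0.01 in muscle against −0.41 in kidney, a difference of 0.42, and Myl6 0.24 in muscle against −0.38 in brain, a difference of 0.62.

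In the other pairs, Tnnc2 was lower in kidney (−0.41) than in brain (0.12), a difference of −0.53 (adjusted p = 1, limma). Mybpc3 had 0.12 in kidney against −0.13 in brain, and Tpm4 −0.13 against 0.09. For pancreas minus kidney Tnnc2 differed by 0.37. Myoz3 differed by −0.38 for pancreas minus brain (adjusted p = 0.261, limma) and by −0.34 for pancreas minus kidney (adjusted p = 0.524, limma). Pdlim2 differed by 0.38 and 0.27 for the same pairs. Myl6 had 0.41 in pancreas against −0.38 in brain, a difference of 0.79 (adjusted p = 0.509, limma). Its probe means in pancreas lay 1.28 apart, the widest gap of the members with several probes there. Only 3 of 8 pancreas arrays lay above 0 for Myl6, with dye means of 0.34 and −0.08. The members named for these pairs had the smallest p of their pair, and none passed the adjusted threshold.

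**Figure D5:**
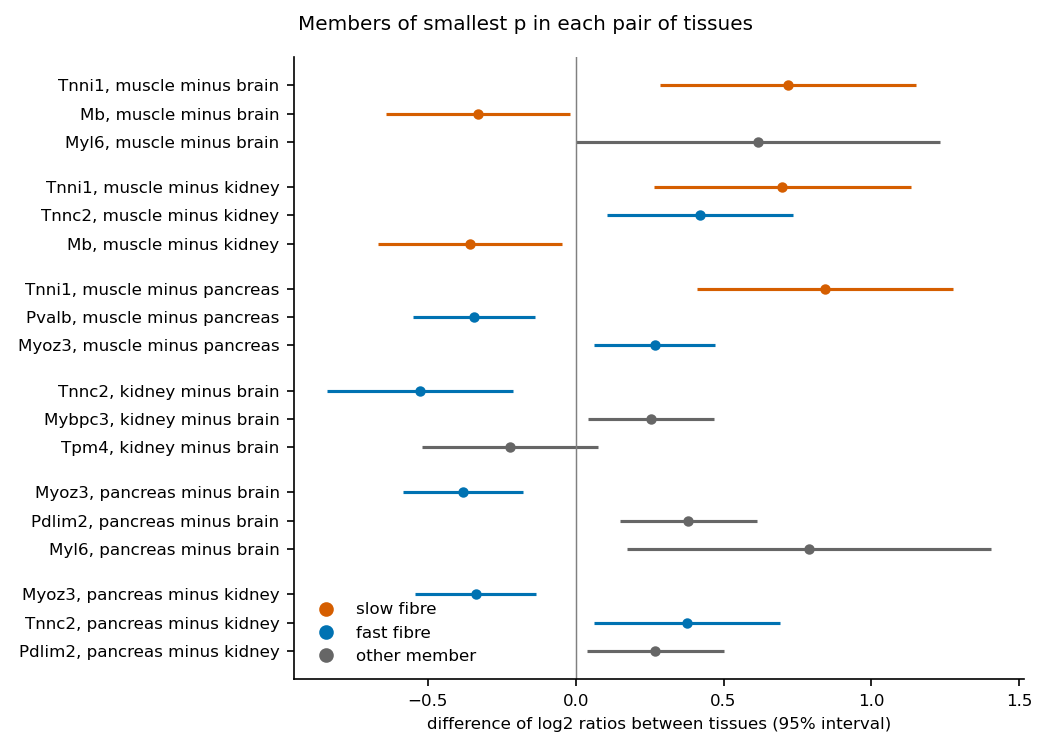
Difference of the knockout log2 ratios between 2 tissues (horizontal axis) with its 95% interval from limma, for the 3 members of smallest p in each of 6 pairs; orange marks slow fibre genes, blue fast fibre genes and grey other members. The Tnni1 differences of 0.70 to 0.84 in the 3 pairs with muscle have the highest lower bounds, 0.27 to 0.41.

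Agreement between probes of a gene limits single values. Of the 46 genes 14 had several probes. All probe means of a gene lay on one side of 0 for 5 of the 14 in muscle, 7 in brain, 4 in kidney and 7 in pancreas. The median gap between probe means was 0.15 in muscle and 0.19 in pancreas, against 0.07 in both brain and kidney. Of the 64 probes 22 were numbered among the final 10% of probes. Their medians in the 4 tissues ran from −0.03 to 0.01, and those of the other 42 from −0.03 to 0.00.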

How the data were processed

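Labelled RNA of each knockout tissue sample was hybridised with pooled wild-type RNA on cDNA arrays after labelling of 20 µg of total RNA, per the labels' protocols. The authors deposited 1 log2 ratio per probe and array. The base of the logarithm was inferred. How the arrays were scanned, corrected, normalised and filtered is not given in the sources used here. Values beyond 8 in size (1844 of 655162, 0.281%) were taken as missing. They are called floor values here, on the unchecked assumption that a channel was at its floor. GEO's platform annotation gave 12771 probes 1 symbol, 0 several and 8023 none. The signs were kept as deposited. Both arrays of an animal were required and averaged, then the probes of a symbol. With lmFit and eBayes of limma 3.58.1 (R 4.3.3), the average of the animals was tested against 0, two-sided, where 3 or more animals had a value, with a Benjamini-Hochberg threshold of 0.05 over all genes. Pairs of tissues were tested in 1 fit over 4 tissues with 12 residual degrees of freedom. The scripts were tested on simulated data.

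Nothing says whether the knockout animals were littermates. The pool is 1 control sample, so p-values leave out the spread between wild-type animals. The animals pair the tissues, since the labels give the same animals; deviations from the tissue means correlated at r from −0.102 to 0.119 between tissues. Members, lists and tests were chosen with earlier results of these data known, so no list has a p of its own. Named in muscle were all members of the fibre type lists; in every tissue up to 5 members in each direction of smallest p with 1 sign in all animals; for each pair the 3 of smallest p; and of other lists up to 3 genes per tissue. Alternatives were other signs, dyes, centring, scaling, probe and array rules, moderation, tissues in the fit, the animal as a block and each animal left out.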

Additional observations from a re-analysis of the deposited data

Results flagged for a closer look

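In 13 of 182 sets of 4 animals, 1 animal of a member gene stood apart from the other animals of its tissue by Dixon's criterion at its 95% critical value, where chance gives about 1 in 20, or 9.1. In muscle, animal 3 had Actn3 at 0.67 and Actn4 at 0.66 while the others lay from −0.16 to −0.14 and from −0.10 to −0.03; each rested on the array with the knockout in Cy5, at 1.35 and 2.16. Animal 4 had Actn2 at −0.19 against 0.00 to 0.04 in the others, and animal 1 had Myl2 at 0.067 against −0.13 to −0.10.

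In kidney, Pdlim1 was at −1.25 in animal 2, where 1 of 4 values was −5.53, and at 0.07 to 0.14 in the others. Pdlim3 was at 1.29 in animal 1, from arrays at 2.15 and 0.43, against −0.11 to 0.08. Animal 1 also stood apart for Myl12b at 0.28, Tnni3 at 0.10 and Actn4 at −0.11, so that 4 of the 5 kidney cases were in animal 1.

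In brain, animal 4 had Myl6 at −0.96 against −0.22 to −0.17 and Pdlim4 at −0.27 against −0.04 to −0.01. In pancreas, Actn3 was at −0.32 in animal 2 against 0.09 to 0.15, and Tnni1 at 0.31 in animal 3 against −0.31 to −0.24.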

How the results depend on the processing

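The count of members called in a tissue stayed at 0 under the alternatives run except the following, whose cause was not tested. With the Cy3 arrays turned, 6 members were called in muscle (of 879 genes) and 8 in pancreas (of 3080), 1 for muscle minus pancreas (of 7), 6 for pancreas minus brain (of 1621) and 1 for pancreas minus kidney (of 390). Genes called for muscle minus brain and muscle minus kidney were then 1 and 0, Myom1 in muscle changed to −0.33, and 38 of 76 member values changed sign. With 4 tissues in 1 fit, 1 member (Tnni1) of 280 genes was called in muscle, with 66 genes in pancreas. Without animal 1, Tnni1 was called for muscle minus brain and muscle minus pancreas; over the animals left out in turn, both pairs gave 0 to 1 member. Genes called then ranged from 0 to 1 in kidney, 0 to 245 for muscle minus brain, 0 to 45 for muscle minus kidney, 2 to 140 for muscle minus pancreas, 0 to 5 for pancreas minus brain and 0 to 2 for pancreas minus kidney. With the animal as replicate block the same pairs with muscle gave 32, 0 and 79 genes, against 115, 3 and 151 without it, and 0 members; the block changed no other call. Fits of only the 2 tissues compared gave 0 genes for each of these. For muscle minus pancreas the count was 97 with floor values kept, 99 with 1 array of an animal accepted, and 11 with arrays centred and scaled. Centring and scaling gave 1 gene for muscle minus kidney and 5 for kidney minus brain, and accepting 1 array gave 1 for pancreas minus brain and 1 for pancreas minus kidney. Probes taken singly gave 200 for muscle minus brain. The 1 gene called in kidney was 0 with floor values kept, with either dye alone, with centring and scaling, with 1 array accepted, with all 4 animals required and in the fit of 4 tissues. A dye term over 8 arrays gave 8 in kidney and 2 in muscle. Cy5 arrays alone gave 1 in pancreas and Cy3 arrays alone 1 in muscle. The slow and fast medians in muscle moved by less than the spread between animals under every alternative that recomputed them. Signal over background was not used here.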

Other observations

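Some genes of the muscle programme outside the chosen families lay to one side of the pool in other tissues, and none was called by limma. In kidney, Pln had 1.04, 0.51, 0.70 and 0.17, above 0 in all 4 animals (mean 0.60, adjusted p = 0.431, limma), and the junctophilin Jph2 averaged 0.11. Mef2d averaged −0.12 there, below 0 in every animal. In brain, Cacnb1 had −0.38, −0.66, −0.31 and −0.10 (mean −0.36, adjusted p = 0.775, limma), and the transcription factor Tead1 averaged 0.22. In pancreas, Cnn2 had −0.79, −0.73, −0.33 and −0.57, a mean of −0.61 (adjusted p = 0.995, limma), against 0.51 in muscle and −0.14 in brain; the difference between tissues is not given for genes outside the families. S100a1, a calcium-binding protein, averaged −0.31 in pancreas and was below 0 in every animal.

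Cox6a2, the heart and muscle isoform of a cytochrome oxidase subunit, had 0.13, 0.12, 1.46 and 0.46 in muscle, above 0 in all 4 animals (mean 0.54, adjusted p = 0.623, limma). Animal 3 was highest, as for Actn3, Mybph and Cryab. Of the 11 skeletal muscle markers listed with Cox6a2, itself included, 4 lay above 0 in muscle and 7 below, with a median of −0.03.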
